A study of Mus musculus with 18 samples.

Results

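Intestinal eosinophils from mice labelled as knockouts of the aryl hydrocarbon receptor (AHR) were compared directly with those from mice labelled as knockouts of the AHR repressor (AHRR). The comparison used 12 of the 18 samples in the series, chosen by the genotype in their labels: 6 labelled as Ahr knockouts (Ahr-/-) and 6 labelled as Ahrr knockouts (Ahrr-/-). Each genotype held 3 females (F1 to F3) and 3 males (M1 to M3). The other 6 samples, 3 females and 3 males labelled WT, took no part in the main tests and are given beside them. Every sample was a bulk RNA sequencing library of CD11b+MHC-II-SiglecF+SSChi cells sorted from small intestines, and the mice are labelled C57/BL6. The study's methods give an age range for its mice and state that they were matched for sex and age within experiments. The ages of individual mice and the allele behind either knockout are not given in the sources used here, and no Cre or cell type restriction is named for these knockouts. According to the study's methods, Ahr-/- and WT mice were neither littermates nor cohoused, and nothing is said there of the Ahrr-/- mice. Mouse line, litter and housing therefore cannot be told apart from genotype.

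AHR is a transcription factor that waits in the cytosol with chaperones and moves to the nucleus when it binds a ligand, many of which come in the gut from diet, microbes and tryptophan breakdown. There it pairs with ARNT, binds DNA elements around the core GCGTG, and induces enzymes that clear its ligands as well as the gene of its own repressor. AHRR is a related protein that also pairs with ARNT, takes the same DNA elements and lacks the activating domain, so that it closes a feedback loop on AHR.

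The values are the authors' variance-stabilized expression on a log2 scale, where 5.02 stands for a count of 0 and differences at low counts are smaller than the log2 ratio of the counts. Summed over all genes, libraries held between 6581818 and 10284124 counts in Ahr-/- (median 9647589) and between 8788867 and 12046933 in Ahrr-/- samples (median 10371556). WT samples were shallower, from 3842977 to 8149200 (median 6022409). A count above 0 was present for 19694 genes in Ahr-/- F3, against 15479 to 16704 in the other Ahr-/- samples and 15598 to 17236 in the Ahrr-/- samples. The 10 most abundant genes took 23.5% of the counts in Ahrr-/- M1 and 21.6% in Ahrr-/- F2, the highest shares of the 12 samples.

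The labels were checked first. Xist, the transcript that silences an X chromosome in females, was between 14.45 and 15.00 in the 9 female samples and between 5.94 and 6.67 in the 9 males, so no sample went against its labelled sex. The eosinophil genes Ccr3, the eotaxin receptor, and Siglecf, the sorted surface lectin, were high in every sample, at 12.38 or more and 9.81 or more. Epx, the granule peroxidase, stayed at or below 6.22 in all 12 samples. Of the knockouts, Ahr itself ranged from 14.15 to 14.67 (median 14.55) in Ahr-/- and from 13.03 to 14.42 (median 13.51) in Ahrr-/- samples, and from 13.40 to 14.40 (median 13.76) in WT samples. Ahr was thus not lower in the samples labelled Ahr-/-: the difference, Ahr-/- minus Ahrr-/- throughout, was 0.82 with a standard error (SE) of 0.23 (adjusted p = 0.0296), and the samples overlapped. This call was lost in 7 of the 12 fits that left out a sample, those without Ahr-/- F1, F2, M1, M2 or M3 and those without Ahrr-/- F3 or M3 (adjusted p up to 0.0739). It was also lost without Ahrr-/- F3, M1 and M3 together and with the sum of enterocyte markers as a covariate (adjusted p = 0.216 and 0.55). Ahrr ranged from 5.02 to 5.79 (median 5.25) in Ahr-/- and from 9.95 to 10.93 (median 10.37) in Ahrr-/- samples, and from 9.79 to 10.39 (median 10.12) in WT samples. The Ahrr transcript was therefore present at WT level in all 6 samples labelled Ahrr-/- and near a count of 0 in all 6 Ahr-/- samples. Reads summed over all exons cannot show a knockout whose deleted part is unknown, and the genotypes are used as labelled.

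Marker genes of other intestinal cells were not equal between the groups. The 20 enterocyte markers summed to 7468, 6119, 13794, 14284, 15788 and 9954 normalized counts in Ahr-/- F1, F2, F3, M1, M2 and M3. In the Ahrr-/- samples in the same order they summed to 9333, 9443, 45115, 44275, 21939 and 48567. Ahrr-/- F3, M1 and M3 thus stood more than 2 times above the highest Ahr-/- sample, whereas Ahrr-/- F1 and F2 lay within the Ahr-/- range. Ahrr-/- M2 was above all 6 Ahr-/- samples by less, and with 22190 and 16338 this also held for its goblet and Paneth markers. Ahrr-/- F1 was above all 6 Ahr-/- samples for goblet (10750) and Paneth (12053) markers, and Ahrr-/- F2 for Paneth markers (8749) only. Sis, the brush border enzyme sucrase-isomaltase, was the most abundant of these markers, and none of the 20 was at 0 in all samples. Goblet cell markers, led by the mucin gene Muc2, summed from 5006 to 6749 (median 5631) in Ahr-/- and from 4217 to 45719 (median 22371) in Ahrr-/- samples. Paneth cell markers, led by the lysozyme gene Lyz1, summed from 1494 to 8719 (median 7133) and from 8749 to 77447 (median 19153), with the highest value in Ahrr-/- M1. Plasma and B cell markers, led by the immunoglobulin joining chain gene Jchain, summed from 156 to 840 (median 323) and from 403 to 6295 (median 4212), and here Ahrr-/- F2 was also high at 5693. Eosinophil markers summed from 65939 to 84582 (median 72755) in Ahr-/- and from 30335 to 79982 (median 63051) in Ahrr-/- samples, and Ahrr-/- F3 and M3 were lowest at 44793 and 30335. In a sorted bulk sample fewer cells of a type and less RNA per cell cannot be told apart. Results are therefore also given without Ahrr-/- F3, M1 and M3, called the 3 enterocyte-high libraries from here on, a choice made after seeing these values that keeps Ahrr-/- M2.

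**Figure D1:**
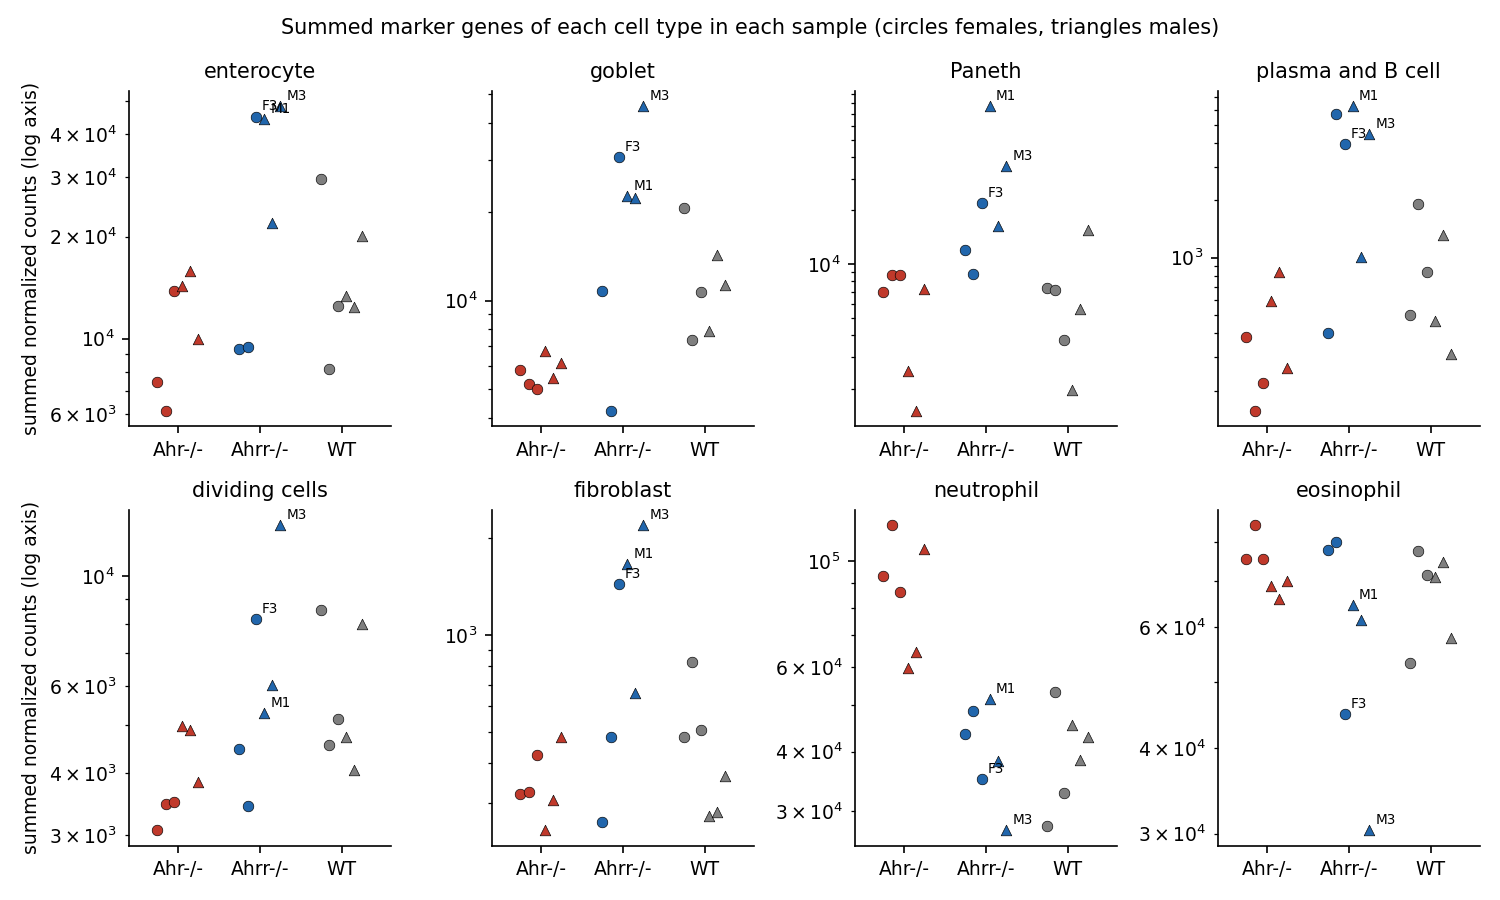
Summed normalized counts of the marker genes of 8 cell types, on a log axis, in each of the 18 samples (circles females, triangles males). The 3 labelled Ahrr-/- samples, F3, M1 and M3, were above all 6 Ahr-/- samples for enterocyte, goblet and Paneth markers, and F3 and M3 were lowest for eosinophil markers. Ahrr-/- M2, not labelled, was also above them for these epithelial markers. For Paneth markers all 6 Ahrr-/- samples were.

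Of 11474 genes with a mean at least 1 above the lowest value, 1708 (14.9%) were called at an adjusted p below 0.05 by limma with sex in the model. Ahr-/- samples were higher for 785 of them (6.84% of those tested) and Ahrr-/- samples for 923 (8.04%), with a median difference over all tested genes of 0.00. Which side had more calls depended on the scaling: after median centring 981 were higher in Ahr-/- and 827 in Ahrr-/-, and after quantile normalization 1029 and 819. Shares called in gene lists are to be read beside the 14.9% over all genes. Past 2-fold there were 92 genes toward Ahr-/- and 190 toward Ahrr-/-. The 6 samples of each genotype did not overlap for 491 called genes (4.28%), 321 higher in Ahr-/- and 170 higher in Ahrr-/-. Leaving out a sample moved the number called between 818 (without Ahr-/- M3) and 2574 (without Ahrr-/- F1), and 693 genes were called in each of the 12 such fits. The count also moved by over 1.5 times without Ahr-/- F1, F2, M1 or M2 (907, 970, 839 and 933) and without Ahrr-/- F3 or M3 (1001 and 923). Without Ahrr-/- F3, M1 and M3 there were 608 calls, of which 497 were among the 1708 and in the same direction, 262 higher in Ahr-/- and 235 higher in Ahrr-/-. With the log2 enterocyte sum as a covariate instead (the enterocyte covariate), 299 of the 1708 remained called.

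**Figure D2:**
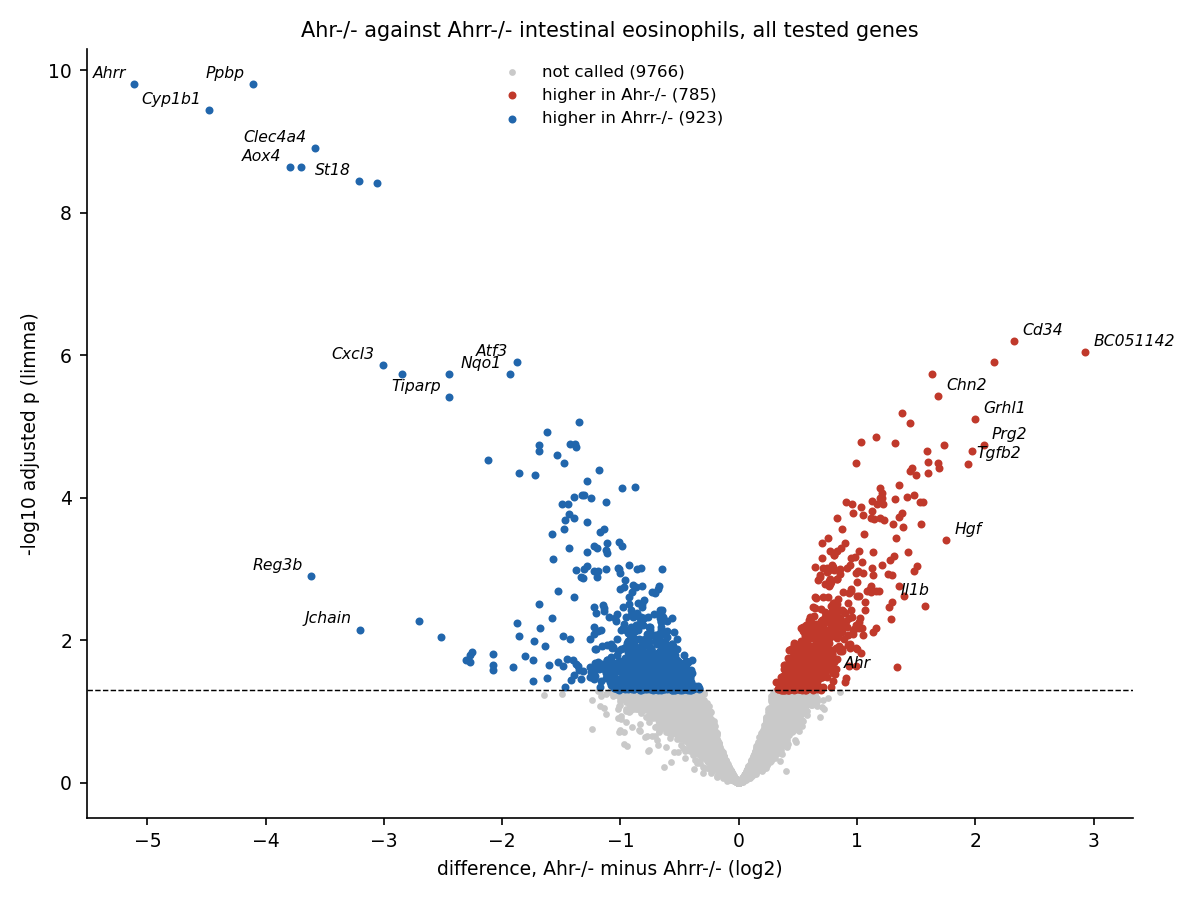
Each tested gene by its difference, Ahr-/- minus Ahrr-/- (log2), and the -log10 of its adjusted p from limma, with the dashed line at an adjusted p of 0.05. The largest differences, from -5.11 for Ahrr to -3.21 for St18, lie on the side of Ahrr-/-, and BC051142 at 2.93 is farthest toward Ahr-/-.

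In principal components of the 500 most variable genes, the first component held 59.63% of the variance. Scores were 12.59 ± 6.86 in Ahr-/- and -12.59 ± 15.94 in Ahrr-/- samples (SD, n = 6; exact two-sided permutation p = 0.0108). The groups overlapped: Ahrr-/- F1 and F2 had scores of 5.43 and 7.82, next to Ahr-/- M1 and M2 at 5.22 and 6.03, while Ahrr-/- F3, M1 and M3 were lowest at -21.26, -24.57 and -30.19. The 4 samples that met are females of Ahrr-/- and males of Ahr-/-. With the mean of each sex removed, the genotypes did not overlap on the first component, nor without Ahrr-/- F2 or without Ahrr-/- M3. The permutation p with the sex means removed was 0.00216, the smallest that 6 against 6 can give. Its permutations crossed the sexes although the values were centred within each sex, so this p is not exact. Ahrr-/- F3, M1 and M3 are also the 3 samples with the most enterocyte transcripts, whose part in the component was not tested. No gene was called by limma for an interaction of genotype with sex; 375 had an unadjusted p below 0.05, and voom on the recovered counts gave 0 calls and 326 such genes.

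The list of 20 genes known as AHR targets held 13 tested genes. Of these, 6 were called, all higher in Ahrr-/-, and 0 were called higher in Ahr-/-; the median difference was -0.66. All 6 were also called without the 3 enterocyte-high libraries and with the enterocyte covariate, where the median was -0.24 and -0.25. Ahrr, the feedback repressor, had the largest difference of any tested gene, -5.11 (SE 0.18, adjusted p = 1.56e-10), with 9.95 as its lowest value in Ahrr-/- and 5.79 as its highest in Ahr-/- samples. Cyp1b1, a cytochrome P450 that oxidizes polycyclic compounds and oestrogens, ranged from 5.24 to 5.57 (median 5.39) in Ahr-/- and from 9.27 to 10.45 (median 9.81) in Ahrr-/- samples. All Ahr-/- samples were close to a count of 0 and all Ahrr-/- samples far above it, a difference of -4.48 (SE 0.17, adjusted p = 3.63e-10). Tiparp, a mono-ADP-ribosyltransferase that feeds back on AHR, ranged from 9.42 to 10.16 (median 9.90) in Ahr-/- and from 11.40 to 13.26 (median 12.10) in Ahrr-/- samples. Its transcript remained well expressed in Ahr-/- samples but did not overlap with Ahrr-/- samples, and the difference was -2.45 (SE 0.21, adjusted p = 3.82e-06). Nqo1, a quinone reductase, ranged from 6.28 to 6.92 (median 6.41) in Ahr-/- and from 8.07 to 9.005 (median 8.31) in Ahrr-/- samples. Again no Ahr-/- sample reached an Ahrr-/- sample, with a difference of -1.93 (SE 0.15, adjusted p = 1.82e-06).

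The 250 bases before the start of these leading 4 targets are shown because AHR binds through the core GCGTG, which is in capitals on either strand (GCGTG or CACGC). They are from RefSeq on GRCm38.p6, 5′ to 3′ in the direction of the gene: Ahrr at chr13:74292332-74292581 (- strand), Cyp1b1 at chr17:79715062-79715311 (- strand), Tiparp at chr3:65528197-65528446 (+ strand) and Nqo1 at chr8:107403206-107403455 (- strand).
Ahrr: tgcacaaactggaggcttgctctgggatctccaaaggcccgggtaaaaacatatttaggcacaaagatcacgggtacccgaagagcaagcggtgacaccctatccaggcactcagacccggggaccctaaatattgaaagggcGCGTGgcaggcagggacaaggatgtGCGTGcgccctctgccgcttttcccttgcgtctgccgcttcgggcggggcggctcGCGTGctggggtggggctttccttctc
Cyp1b1: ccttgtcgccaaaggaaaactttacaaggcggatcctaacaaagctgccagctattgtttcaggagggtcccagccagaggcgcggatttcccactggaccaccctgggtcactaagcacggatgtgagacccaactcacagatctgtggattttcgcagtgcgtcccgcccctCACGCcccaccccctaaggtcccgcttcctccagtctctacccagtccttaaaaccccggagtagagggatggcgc
Tiparp: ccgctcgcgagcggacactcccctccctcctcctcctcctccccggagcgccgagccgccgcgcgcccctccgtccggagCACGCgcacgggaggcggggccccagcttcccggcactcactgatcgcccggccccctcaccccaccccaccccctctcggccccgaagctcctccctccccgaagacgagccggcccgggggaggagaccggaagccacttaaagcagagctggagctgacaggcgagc
Nqo1: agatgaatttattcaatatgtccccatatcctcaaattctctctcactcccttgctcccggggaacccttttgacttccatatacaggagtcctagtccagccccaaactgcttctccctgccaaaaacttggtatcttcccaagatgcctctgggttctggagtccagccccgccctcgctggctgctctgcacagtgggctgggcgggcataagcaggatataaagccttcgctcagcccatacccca
The Ahrr window holds the core 3 times, those of Cyp1b1 and Tiparp 1 time each, and that of Nqo1 has none (0 matches). A window of this length holds the core in 28.2% of all 32851 promoters and in 49.5% of the 9212 promoters of tested genes. Among the called genes it is in 44.5% of 701 promoters of genes higher in Ahrr-/- and in 40.5% of 620 of genes higher in Ahr-/-. Of the 15 AHR targets with a promoter in the table, 8 hold it. The longer form TNGCGTG, which contains the core, is in 4.1% of all promoters, in 7.62% of those of tested genes and in the Ahrr window. These matches describe letters in a window and do not show binding.

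The remaining called targets differed less. Serpinb2, an inhibitor of plasminogen activators, ranged from 10.88 to 12.54 (median 11.22) in Ahr-/- and from 11.82 to 13.57 (median 12.66) in Ahrr-/- samples; the Ahr-/- females F1 and F2 at 12.05 and 12.54 reached into the Ahrr-/- range, and the difference was -1.14 (SE 0.21, adjusted p = 0.00392). Nfe2l2, whose product NRF2 drives antioxidant genes, had a difference of -0.66 (SE 0.12, adjusted p = 0.00417) with overlap. Scin, Gsta1, Slc7a5, Ugt1a6a, Slc10a1, Lpcat2 and Cdkn1b were tested and not called. Cyp1a1, Cyp1a2, Aldh3a1, Fgf21, Ido1, Ido2 and Ugt1a6b did not reach the minimum mean, and the highest value of Cyp1a1, the P450 most often used as an AHR readout, was 6.05 in Ahrr-/- samples. Of 15 tested partners and chaperones of AHR 3 were called (20%, against 14.9% over all genes), Ahr itself and the oxygen-sensing factors Hif1a and Epas1, which also pair with ARNT and were higher in Ahrr-/- at -0.84 (adjusted p = 0.0144) and -1.05 (adjusted p = 0.0298, and 0.56 with the enterocyte covariate), both with overlap. Neither Ahr nor Epas1 was called without the 3 enterocyte-high libraries (adjusted p = 0.216 and 0.375). Epas1 was not called in 7 of the 12 fits that left out a sample (Ahr-/- F1, M1, M2 or M3, or Ahrr-/- F3, M1 or M3). The partner counts were 0 higher in Ahr-/- and 2 in Ahrr-/- without the 3 enterocyte-high libraries. They were 0 and 1 with the enterocyte covariate, and the total was 1 when only Ahr-/- F1 was left out.

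**Figure D3:**
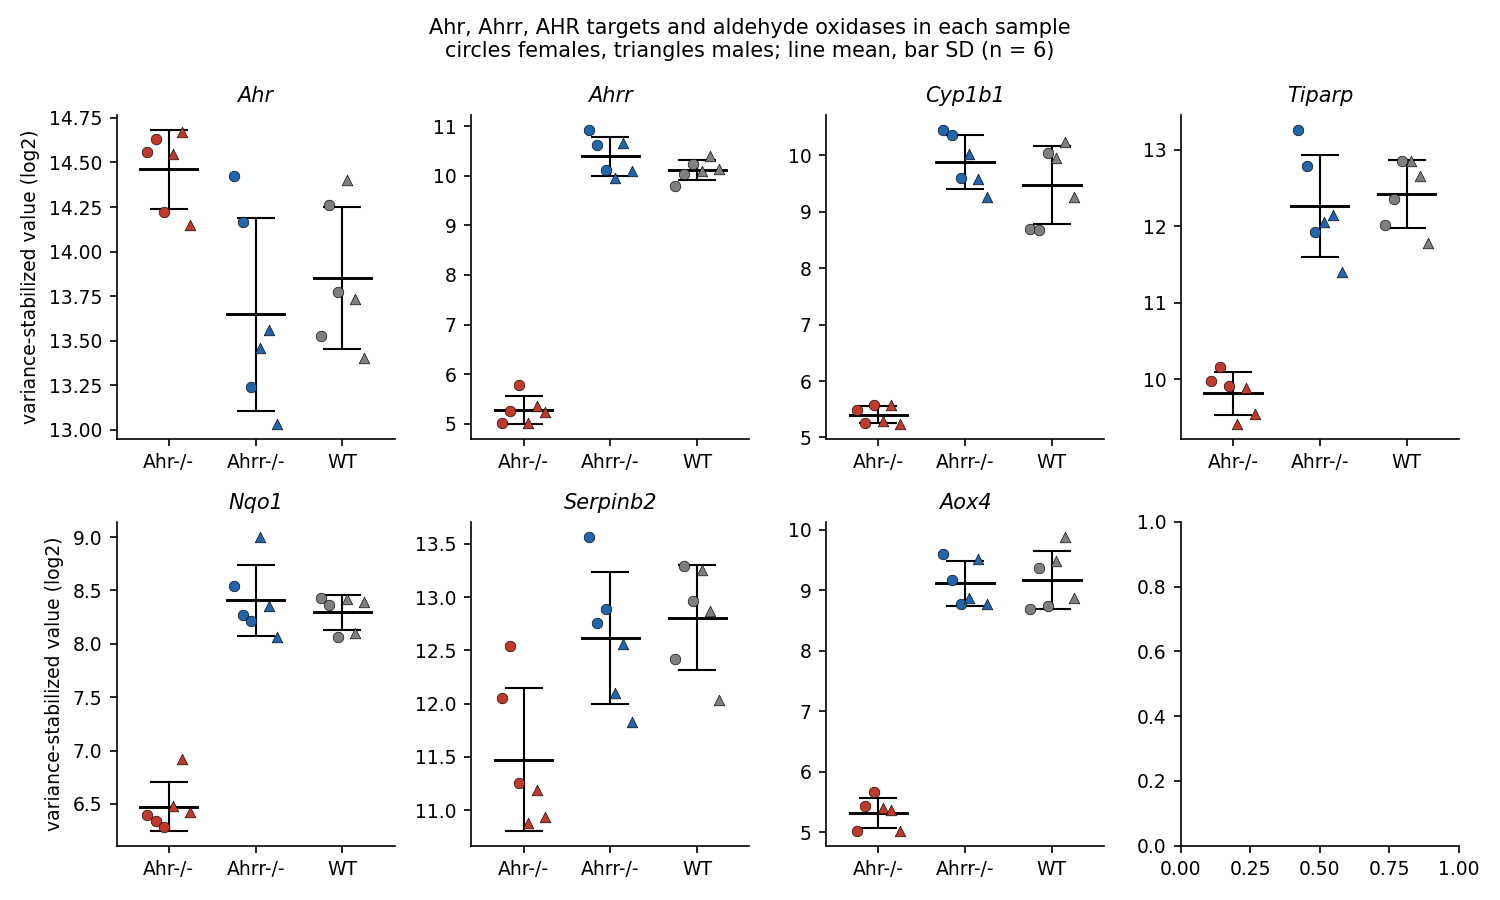
Variance-stabilized values (log2) of Ahr, Ahrr, Cyp1b1, Tiparp, Nqo1, Serpinb2 and Aox4 in each sample (circles females, triangles males). The mean is a line and the SD a bar (n = 6). Ahrr, Cyp1b1 and Aox4 sit near 5.02, a count of 0, in Ahr-/- samples and above 8.73 in Ahrr-/- samples, next to WT.

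Aldehyde oxidases followed the same order as the targets. Aox4, which oxidizes aldehydes and heterocyclic compounds such as retinaldehyde, ranged from 5.02 to 5.67 (median 5.38) in Ahr-/- and from 8.77 to 9.60 (median 9.02) in Ahrr-/- samples, and its relative Aox2 ranged from 5.02 to 5.86 (median 5.38) in Ahr-/- and from 8.73 to 9.62 (median 9.04) in Ahrr-/- samples. For neither gene did an Ahr-/- sample come near an Ahrr-/- sample, with differences of -3.80 (SE 0.17, adjusted p = 2.29e-09) and -3.70 (SE 0.17, adjusted p = 2.29e-09). Aldh3a2, which clears fatty aldehydes, also separated all 12 samples at -0.99 (SE 0.11, adjusted p = 7.31e-05). Over the list of aldehyde oxidases and dehydrogenases, 7 of 17 tested genes were called, all higher in Ahrr-/- (41.2% called, median -0.68). Only Aox4, Aox2 and Aldh3a2 stayed called without the 3 enterocyte-high libraries (median -0.32) and with the enterocyte covariate (median -0.18). Without the covariate, the number called was 3 when only Ahr-/- F2 was left out. Of 34 tested conjugating and antioxidant enzymes, 7 were called, all higher in Ahrr-/- (20.6% called, median -0.34), but 1 without these 3 libraries, Gpx2, an epithelial glutathione peroxidase, at -0.67, where the list's median was -0.06. With the enterocyte covariate 1 was called higher in Ahr-/- and 0 higher in Ahrr-/- (median -0.05). Without the covariate, this list had 1 call when only Ahr-/- F2 was left out and 14 when only Ahrr-/- F1 was.

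Further genes had large differences toward Ahrr-/- without overlap. Ppbp, the precursor of the neutrophil-attracting chemokine CXCL7, ranged from 5.24 to 5.68 (median 5.56) in Ahr-/- and from 9.26 to 9.94 (median 9.68) in Ahrr-/- samples. It was near a count of 0 in each Ahr-/- sample, and the difference of -4.11 (SE 0.15, adjusted p = 1.56e-10) was next in adjusted p to that of Ahrr. Clec4a4, an inhibitory C-type lectin receptor, ranged from 5.36 to 5.67 (median 5.53) in Ahr-/- and from 8.61 to 9.54 (median 9.05) in Ahrr-/- samples, a difference of -3.58 (SE 0.15, adjusted p = 1.22e-09). St18, a zinc finger transcription factor, ranged from 5.24 to 5.98 (median 5.54) in Ahr-/- and from 8.51 to 9.13 (median 8.77) in Ahrr-/- samples, and the groups lay far apart (difference -3.21, SE 0.15, adjusted p = 3.57e-09). Dpep2, a membrane dipeptidase that converts leukotriene D4 to E4, ranged from 6.14 to 6.86 (median 6.46) in Ahr-/- and from 9.08 to 10.22 (median 9.40) in Ahrr-/- samples. The difference of -3.06 (SE 0.15, adjusted p = 3.77e-09) was larger than the whole spread within either genotype. Cxcl3, a chemokine for neutrophils, was the most abundant of these genes, from 9.41 to 10.66 (median 10.12) in Ahr-/- and from 12.18 to 14.04 (median 13.05) in Ahrr-/- samples (difference -3.01, SE 0.23, adjusted p = 1.35e-06). Fcrls, an Fc receptor-like scavenger receptor, and Nmur1, the receptor for the neuropeptide neuromedin U, also went from near 0 in Ahr-/- to clear expression in every Ahrr-/- sample, at -2.85 (SE 0.23, adjusted p = 1.82e-06) and -2.45 (SE 0.20, adjusted p = 1.82e-06). Every gene of this group was called in all 12 fits without a sample, without the 3 enterocyte-high libraries, and in females and in males alone.

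Toward Ahr-/-, the largest differences without overlap began with BC051142, a gene of the major histocompatibility region, from 6.06 to 6.99 (median 6.76) in Ahrr-/- and from 8.94 to 10.01 (median 9.82) in Ahr-/- samples. Its lowest Ahr-/- sample was 1.95 above the highest Ahrr-/- sample (difference 2.93, SE 0.21, adjusted p = 9.07e-07). Cd34, a surface sialomucin of progenitor cells that mature mouse eosinophils also carry, ranged from 6.91 to 8.05 (median 7.60) in Ahrr-/- and from 9.59 to 10.08 (median 9.96) in Ahr-/- samples. All 6 Ahr-/- samples were higher, by 2.33 (SE 0.16, adjusted p = 6.37e-07) on average. Gm14548, a paired immunoglobulin-like receptor whose reads may be shared with near-identical relatives, differed by 2.16 (SE 0.16, adjusted p = 1.24e-06). Prg2, which encodes the major basic protein of eosinophil granules, ranged from 6.48 to 7.96 (median 7.21) in Ahrr-/- and from 8.60 to 9.95 (median 9.41) in Ahr-/- samples. No Ahrr-/- sample reached the lowest Ahr-/- sample, and the difference was 2.07 (SE 0.21, adjusted p = 1.81e-05). Hgf, the hepatocyte growth factor, was abundant in both genotypes, from 10.42 to 11.99 (median 10.85) in Ahrr-/- and from 12.23 to 13.09 (median 12.91) in Ahr-/- samples, a difference of 1.75 (SE 0.25, adjusted p = 0.00039) without overlap, although Ahrr-/- F1 came within 0.23 of the Ahr-/- range. The growth factor gene Tgfb2 ranged from 5.70 to 6.45 (median 6.39) in Ahrr-/- and from 7.33 to 8.65 (median 8.37) in Ahr-/- samples, a difference of 1.94 (SE 0.21, adjusted p = 3.36e-05).

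The remaining genes of this kind were Grhl1, a grainyhead-like transcription factor (1.99, SE 0.18, adjusted p = 7.9e-06), Serpina11, a serpin (1.73, SE 0.17, adjusted p = 1.83e-05), Clec12a, an inhibitory lectin receptor (1.69, SE 0.18, adjusted p = 3.81e-05), Chn2, a GTPase-activating protein for Rac (1.69, SE 0.14, adjusted p = 3.75e-06), and Ikzf2, the transcription factor Helios (1.68, SE 0.18, adjusted p = 3.27e-05). In each, all 6 Ahr-/- samples were above all 6 Ahrr-/- samples. Grhl1 lies 10880588 bases from Ahr. The noncoding RNA 9130015A21Rik, which lies nearer to Ahr, completes the group and is described with the loci. These genes, too, were called in all 12 fits without a sample and without the 3 enterocyte-high libraries.

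**Figure D4:**
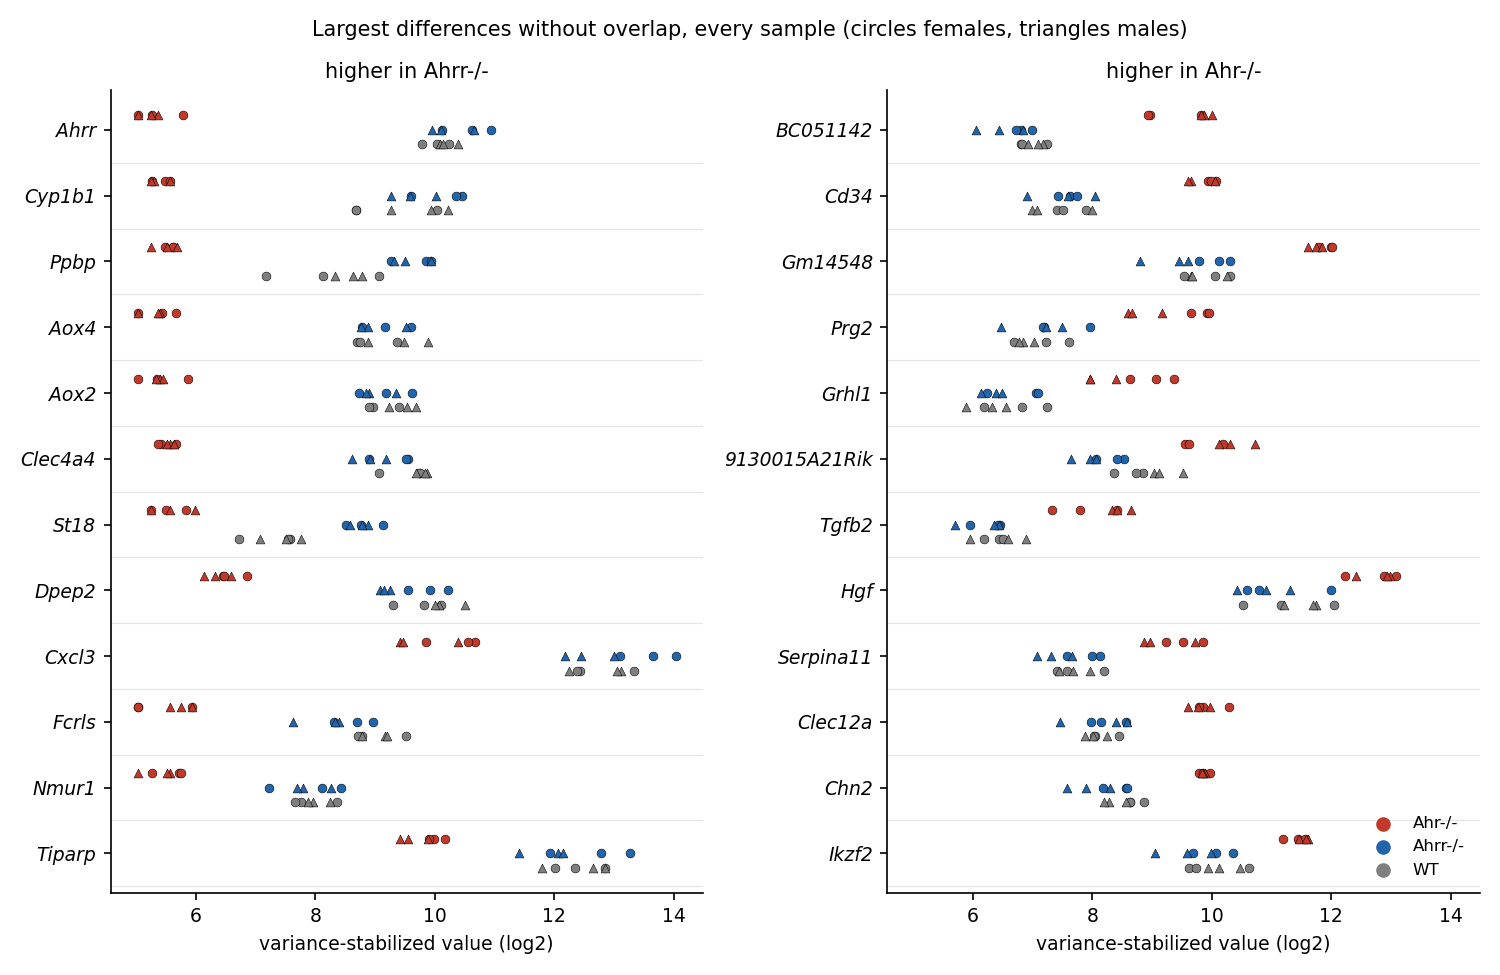
Variance-stabilized values (log2) of the 12 called genes in each direction with the largest difference and no overlap between Ahr-/- and Ahrr-/- samples, with WT samples beneath (circles females, triangles males). WT samples lie with Ahrr-/- for most genes and between the genotypes for Ppbp and St18. The WT median of 9130015A21Rik is also between the genotypes.

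Among 23 tested eosinophil identity and receptor genes, 6 were called higher in Ahr-/- and 4 higher in Ahrr-/- (43.5% called, median 0.26). The eosinophil counts were 3 higher in Ahr-/- and 4 in Ahrr-/- without the 3 enterocyte-high libraries (median 0.06) and 2 and 4 with the enterocyte covariate (median -0.02). The receptors for eosinophil growth factors split. Csf2rb, the common beta chain for IL-5, IL-3 and GM-CSF, ranged from 10.88 to 11.45 (median 11.23) in Ahr-/- and from 11.52 to 13.09 (median 12.49) in Ahrr-/- samples, and its paralogue Csf2rb2, the IL-3-specific chain, ranged from 8.88 to 9.82 (median 9.45) in Ahr-/- and from 10.20 to 11.62 (median 11.23) in Ahrr-/- samples. Neither gene overlapped between the genotypes, and both were higher in Ahrr-/-, at -1.28 (SE 0.19, adjusted p = 0.000573) and -1.72 (SE 0.19, adjusted p = 4.82e-05). Il5ra, the IL-5-specific alpha chain, went the other way, from 10.04 to 11.18 (median 10.72) in Ahrr-/- and from 10.96 to 11.68 (median 11.45) in Ahr-/- samples (difference 0.75, SE 0.19, adjusted p = 0.018, and 0.388 with the enterocyte covariate), with overlap, and was not called without the 3 enterocyte-high libraries (adjusted p = 0.113). Ccr1, a receptor for inflammatory chemokines, and Cd69, an activation marker that retains leukocytes in tissue, were higher in every Ahrr-/- sample, at -1.22 (adjusted p = 0.000477) and -1.32 (adjusted p = 9e-05). Cd22, an inhibitory sialic acid receptor, ranged from 7.98 to 9.34 (median 8.59) in Ahrr-/- and from 8.99 to 10.83 (median 10.33) in Ahr-/- samples; Ahr-/- F2 alone lay in the Ahrr-/- range, and the difference was 1.58 (adjusted p = 0.00333). Siglecf differed by 0.72 (adjusted p = 0.02, and 0.399 with the enterocyte covariate) without overlap, and among the fits that left out a sample this call was lost only without Ahr-/- M3 (adjusted p = 0.0558). Of 16 granule protein genes, 8 were found, and Prg2 alone reached the minimum mean.

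Of 14 tested chemokines, 3 were called higher in Ahr-/- and 4 higher in Ahrr-/- (50% called, median -0.46). The chemokine counts were 2 higher in Ahr-/- and 3 in Ahrr-/- without the 3 enterocyte-high libraries (median -0.39) and 0 and 2 with the enterocyte covariate (median -0.17), and the total was 4 without Ahr-/- F1. Ccl3, a chemokine for monocytes and lymphocytes, ranged from 9.50 to 11.89 (median 10.47) in Ahrr-/- and from 10.46 to 12.46 (median 11.75) in Ahr-/- samples with wide overlap (difference 0.999, adjusted p = 0.0133, and 0.304 with the enterocyte covariate), opposite to Ppbp and Cxcl3. Il1b, the inflammatory cytokine, was among the most abundant transcripts, from 13.93 to 15.60 (median 14.74) in Ahrr-/- and from 15.60 to 16.76 (median 15.97) in Ahr-/- samples. Its samples met at 15.60, the lowest Ahr-/- and the highest Ahrr-/- value, and the difference was 1.297 (SE 0.23, adjusted p = 0.00285). Retnlg, a resistin-like gene also used as a neutrophil marker, ranged from 14.46 to 15.41 (median 15.02) in Ahrr-/- and from 15.74 to 16.79 (median 16.32) in Ahr-/- samples, without overlap (1.29, adjusted p = 0.00503, and 0.0554 with the enterocyte covariate). Of 15 tested cytokines and growth factors, 5 were called higher in Ahr-/- and 2 higher in Ahrr-/- (46.7% called). The cytokine counts were 1 higher in Ahr-/- and 2 in Ahrr-/- without the 3 enterocyte-high libraries and 1 and 2 with the enterocyte covariate. Csf1, the macrophage growth factor, was lower in Ahr-/- at -1.07 (adjusted p = 0.0128) with overlap. Over the genes of IL-1, TNF and NF-kB signalling, 6 of 46 were called higher in Ahr-/- and 8 higher in Ahrr-/-. Their median difference was -0.02, and 0.04 after centring of the samples. The share called was 30.4%. These IL-1 and TNF counts were 4 higher in Ahr-/- and 4 in Ahrr-/- without the 3 enterocyte-high libraries (median -0.12) and 3 and 1 with the enterocyte covariate (median -0.16), and the total was 7 without Ahr-/- M1. Inflammasome sensors were on both sides: Nlrp3 was higher in every Ahrr-/- sample (-1.11, adjusted p = 0.000427), Nlrp1b in every Ahr-/- sample (0.97, adjusted p = 0.00683, and 0.189 with the enterocyte covariate), and so was Nod1, a sensor of bacterial cell walls (1.02, adjusted p = 0.000549).

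S100a8 and S100a9, which together form calprotectin and serve as neutrophil markers, were higher in Ahrr-/-. S100a8 ranged from 6.81 to 9.61 (median 7.31) in Ahr-/- and from 8.88 to 10.39 (median 9.22) in Ahrr-/- samples, and S100a9 ranged from 7.71 to 10.15 (median 8.07) in Ahr-/- and from 9.53 to 10.87 (median 9.86) in Ahrr-/- samples. Only Ahr-/- F3, the Ahr-/- sample with the most genes detected, at 9.61 and 10.15, reached the Ahrr-/- range, and the differences were -1.73 (SE 0.38, adjusted p = 0.0103, and 0.121 with the enterocyte covariate) and -1.69 (SE 0.30, adjusted p = 0.00305). Of 10 tested neutrophil markers, 4 were called higher in Ahrr-/- and 1, Retnlg, higher in Ahr-/-. The neutrophil counts were 1 higher in Ahr-/- and 4 in Ahrr-/- without the 3 enterocyte-high libraries, and 0 and 2 with the enterocyte covariate, where Retnlg was not called. Retnlg is the most abundant of them and set their sum, from 59804 to 119156 (median 89775) normalized counts in Ahr-/- and from 27366 to 51433 (median 40841) in Ahrr-/- samples. The defining neutrophil gene Ly6g was at or near 0 in every sample, at most 5.80. Mmp8, the neutrophil collagenase, ranged from 5.02 to 6.28 (median 5.64) in Ahr-/- and from 6.73 to 7.70 (median 7.11) in Ahrr-/- samples and did not overlap (-1.58, adjusted p = 0.000322).

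Among 19 tested paired immunoglobulin-like receptors, 10 were called, all higher in Ahr-/- (52.6% called, median 0.53). Without the 3 enterocyte-high libraries the number was 3, namely Gm14548, Pirb and Sirpb1a, with a median of 0.36. With the enterocyte covariate it was 1, Gm14548, with a median of 0.22, and the reads of this family may be shared between copies. Without the covariate, the number was 5 when only Ahr-/- M1 was left out. Pirb, an inhibitory receptor for MHC class I, ranged from 10.67 to 11.80 (median 11.35) in Ahrr-/- and from 11.98 to 12.38 (median 12.08) in Ahr-/- samples, and all Ahr-/- samples were higher (0.78, adjusted p = 0.00588, and 0.152 with the enterocyte covariate). Of the C-type lectin receptors, 5 of 13 were called higher in Ahrr-/- and 3 higher in Ahr-/- (61.5% called, median -0.36). The lectin counts were 1 higher in Ahr-/- and 6 in Ahrr-/- without the 3 enterocyte-high libraries (median -0.37) and 1 and 4 with the enterocyte covariate (median -0.46). Beside Clec4a4, Clec4d, a receptor for mycobacterial glycolipid, ranged from 6.55 to 7.27 (median 6.90) in Ahr-/- and from 7.05 to 8.53 (median 8.02) in Ahrr-/- samples (-1.002, adjusted p = 0.00188), and Clec5a, a receptor that signals through DAP12, separated the groups (-0.91, adjusted p = 0.0065). Of 7 tested Fc receptors 1 was called higher in Ahr-/- and 2 higher in Ahrr-/- (42.9% called). The Fc receptor counts were 1 higher in Ahr-/- and 1 in Ahrr-/- without the 3 enterocyte-high libraries and 1 and 1 with the enterocyte covariate. Fcgr2b, the inhibitory IgG receptor, was higher in every Ahr-/- sample (1.13, adjusted p = 0.00121), and Fcgr4, an activating IgG receptor, in every Ahrr-/- sample (-1.20, adjusted p = 0.000512). Of 23 tested genes related to the MHC, 4 were called, all higher in Ahr-/- (17.4%, against 14.9% over all genes). The MHC counts were 2 higher in Ahr-/- and 1 in Ahrr-/- without the 3 enterocyte-high libraries and 2 and 0 with the enterocyte covariate, and the total was 8 without Ahrr-/- M1.

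Of 32 tested lineage and effector transcription factors, St18 and Grhl1 among them, 10 were called higher in Ahrr-/- and 3 higher in Ahr-/- (40.6% called, median -0.19). The factor counts were 2 higher in Ahr-/- and 6 in Ahrr-/- without the 3 enterocyte-high libraries (median -0.14) and 2 and 3 with the enterocyte covariate (median -0.19), and the total was 6 without Ahr-/- F2. Rara, a retinoic acid receptor, and Runx1, a blood lineage factor, were higher in Ahrr-/- at -0.91 (adjusted p = 0.00379) and -0.76 (adjusted p = 0.0105), the second with overlap. Id2, an inhibitor of helix-loop-helix factors that lies 10401887 bases from Ahr, ranged from 7.33 to 8.38 (median 7.95) in Ahrr-/- and from 8.60 to 9.56 (median 9.30) in Ahr-/- samples. It separated the genotypes with the higher values in Ahr-/-, at 1.39 (SE 0.19, adjusted p = 0.000257). Of 25 tested immediate early genes, 2 were called higher in Ahr-/- and 2 higher in Ahrr-/- (16% called, median -0.30). The immediate early counts were 1 higher in Ahr-/- and 1 in Ahrr-/- without the 3 enterocyte-high libraries (median -0.25) and 1 and 1 with the enterocyte covariate (median -0.25), and the total was 2 without Ahr-/- F1 and 7 without Ahrr-/- F1. Atf3, a stress-induced factor, ranged from 7.61 to 8.74 (median 8.07) in Ahr-/- and from 9.25 to 10.73 (median 9.99) in Ahrr-/- samples. No samples overlapped, and the difference was -1.88 (SE 0.14, adjusted p = 1.24e-06). Myc, a driver of growth, ranged from 8.43 to 9.37 (median 8.63) in Ahrr-/- and from 9.78 to 10.44 (median 10.07) in Ahr-/- samples, and every Ahr-/- sample was higher, at 1.31 (SE 0.17, adjusted p = 0.000232).

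Notch1, a receptor for cell contact signals, ranged from 9.49 to 10.20 (median 9.73) in Ahr-/- and from 10.76 to 11.81 (median 11.59) in Ahrr-/- samples, whereas Maml2, a coactivator of Notch, ranged from 7.12 to 7.77 (median 7.40) in Ahrr-/- and from 8.17 to 8.73 (median 8.69) in Ahr-/- samples. Neither overlapped, and the differences were -1.69 (SE 0.17, adjusted p = 1.81e-05) and 1.19 (SE 0.14, adjusted p = 7.14e-05); over the Notch list 4 genes were called toward Ahr-/- and 4 toward Ahrr-/- of 26 tested. The share called was 30.8%. The Notch counts were 2 higher in Ahr-/- and 3 in Ahrr-/- without the 3 enterocyte-high libraries and 2 and 3 with the enterocyte covariate, and the total was 5 without Ahr-/- F1. Of 35 tested genes of MAPK and JAK-STAT feedback, 5 were called higher in Ahr-/- and 3 higher in Ahrr-/- (22.9% called, median 0.10). The feedback counts were 4 higher in Ahr-/- and 2 in Ahrr-/- without the 3 enterocyte-high libraries (median -0.04) and 2 and 1 with the enterocyte covariate (median -0.10). Socs2, a brake on cytokine receptors, was higher in every Ahrr-/- sample at -1.48 (SE 0.16, adjusted p = 3.27e-05). Gadd45g, a stress-response gene, was higher in every Ahr-/- sample at 1.38 (SE 0.18, adjusted p = 0.000165), and Dusp16, a phosphatase of JNK, was higher in Ahr-/- with overlap at 1.49 (SE 0.24, adjusted p = 0.00108). Of 26 tested genes of TGF-beta signalling, 4 were called higher in Ahr-/-, among them Tgfb2 and the signal carrier Smad3 (0.77, adjusted p = 0.00102), and 2 higher in Ahrr-/-. The share called was 23.1%. The TGF-beta counts were 3 higher in Ahr-/- and 0 in Ahrr-/- without the 3 enterocyte-high libraries and 3 and 0 with the enterocyte covariate, and the total was 3 without Ahr-/- F2. Of 25 tested genes of cell survival, 5 were called higher in Ahr-/- and 2 higher in Ahrr-/-. Bcl2a1b, a survival gene whose near-identical copies may share reads, ranged from 8.54 to 10.18 (median 9.78) in Ahrr-/- and from 9.91 to 11.15 (median 10.79) in Ahr-/- samples (1.11, adjusted p = 0.00188). The share called was 28%. The survival counts were 3 higher in Ahr-/- and 1 in Ahrr-/- without the 3 enterocyte-high libraries and 3 and 1 with the enterocyte covariate.

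Genes that act on the matrix and on adhesion moved both ways. Of 7 tested hyaluronidases, 5 were called higher in Ahr-/- and 1 higher in Ahrr-/- (85.7% called, median 0.90). Hyal5, Hyal4, Hyal6 and Spam1, which lie in a cluster of hyaluronidase genes, were higher in each Ahr-/- than in each Ahrr-/- sample, at 1.21, 1.004, 0.90 and 0.95 with adjusted p from 0.000435 to 0.00188. Hyal5, the highest of them, ranged from 6.16 to 6.86 (median 6.41) in Ahrr-/- and from 7.15 to 8.29 (median 7.62) in Ahr-/- samples. Without the 3 enterocyte-high libraries these 4 remained called and the other called members did not (median 0.72), and with the enterocyte covariate Spam1 was not called either (adjusted p = 0.0617, list median 0.66). Matrix proteases and inhibitors had 3 calls toward Ahr-/- and 6 toward Ahrr-/- of 21 tested. The share called was 42.9%. The protease counts were 2 higher in Ahr-/- and 4 in Ahrr-/- without the 3 enterocyte-high libraries and 2 and 4 with the enterocyte covariate. Mmp27, a matrix metalloproteinase, ranged from 5.93 to 6.35 (median 6.14) in Ahr-/- and from 6.61 to 7.72 (median 7.36) in Ahrr-/- samples (-1.18, adjusted p = 0.0003), and Mmp25, an abundant membrane-anchored protease of leukocytes, ranged from 11.79 to 12.35 (median 12.17) in Ahr-/- and from 12.29 to 13.80 (median 13.19) in Ahrr-/- samples (-1.05, adjusted p = 0.00492). Both were higher in Ahrr-/-, the second with overlap. Col5a1, a fibrillar collagen chain, separated all samples (-1.42, adjusted p = 1.75e-05). Of 21 tested matrix protein genes, 1 was called higher in Ahr-/- and 4 higher in Ahrr-/- (23.8% called, median -0.65). The matrix counts were 0 higher in Ahr-/- and 1 in Ahrr-/- without the 3 enterocyte-high libraries (median -0.11) and 0 and 1 with the enterocyte covariate (median -0.04), and the total was 2 without Ahr-/- M1 and 14 without Ahrr-/- F1. Fibroblast markers, led by Acta2, summed from 247 to 483 (median 324) normalized counts in Ahr-/- and from 262 to 2197 (median 1049) in Ahrr-/- samples, with 1437, 1661 and 2197 in F3, M1 and M3, and their part in the result was not tested. Of 34 tested integrin and adhesion genes, 7 were called higher in Ahr-/- and 3 higher in Ahrr-/-. The share called was 29.4%. The adhesion counts were 5 higher in Ahr-/- and 1 in Ahrr-/- without the 3 enterocyte-high libraries and 3 and 0 with the enterocyte covariate, and the total was 6 without Ahr-/- F1 and 16 without Ahrr-/- F1. Itgal, the alpha chain of LFA-1, ranged from 10.25 to 11.86 (median 11.23) in Ahrr-/- and from 12.19 to 12.83 (median 12.49) in Ahr-/- samples, and Cd47, which shields cells from phagocytes, from 11.15 to 11.69 (median 11.47) in Ahrr-/- and from 12.13 to 12.31 (median 12.20) in Ahr-/- samples. Each was higher in all 6 Ahr-/- samples, at 1.28 (adjusted p = 0.000743) and 0.78 (adjusted p = 0.0015).

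The WT samples place each knockout. Among the 785 genes called higher in Ahr-/-, the WT mean was nearer to Ahrr-/- for 619 (78.9%) and nearer to Ahr-/- for 166. Among the 923 called higher in Ahrr-/-, it was nearer to Ahrr-/- for 551 (59.7%) and nearer to Ahr-/- for 372. Over all 11474 tested genes the WT mean was nearer to Ahrr-/- for 52.9%. The WT mean lay between the means of the knockouts for 655 of the 785 and for 783 of the 923, against 5830 of the 11474. Of the 1708 called genes, it was above both knockouts for 118 and below both for 152. Cyp1b1 and Tiparp were 9.47 ± 0.69 and 12.42 ± 0.45 in WT (SD, n = 6), with each mean within the Ahrr-/- range. For Ppbp and St18 the WT samples ran from 7.17 to 9.07 (median 8.48) and from 6.73 to 7.76 (median 7.52). All of them were above every Ahr-/- and below every Ahrr-/- sample. S100a8 and S100a9 ran from 6.89 to 7.63 (median 7.29) and from 7.44 to 8.54 (median 7.88) in WT, below all 6 Ahrr-/- samples, although Ahr-/- F3 was within the Ahrr-/- range. Nlrp3 (from 5.84 to 6.85, median 6.49, in WT) and Clec5a (from 6.10 to 6.80, median 6.36) also had a WT mean nearer to Ahr-/-, with WT samples reaching into the Ahrr-/- range for both. For Cd22 the WT values, from 9.26 to 10.18 (median 9.62), lay between the genotypes with overlap. These WT values are a description, and no test was made on them.

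Because the groups come from different lines, genes near the targeted loci are given as sets. Within 10 Mb of Ahr, 12 of 46 tested genes were called (26.1%, against 14.9% over all genes), 7 higher in Ahr-/- and 5 higher in Ahrr-/-. Within 20 Mb of Ahr the number was 28 of 90 (31.1%), with Grhl1 (1.99) and Id2 (1.39) between 10 and 20 Mb away. Within 10 Mb of Ahrr, 9 of 73 were called (12.3%), and within 20 Mb 23 of 164 (14%). The largest difference within 10 Mb of Ahr was that of the noncoding RNA 9130015A21Rik, 137301 bases away, which ranged from 7.65 to 8.53 (median 8.06) in Ahrr-/- and from 9.56 to 10.73 (median 10.15) in Ahr-/- samples. The genotypes did not overlap (difference 1.98, SE 0.20, adjusted p = 2.18e-05), and WT samples ran from 8.37 to 9.51 (median 8.94). F730043M19Rik, another noncoding RNA of the window, and Prps1l1, a phosphoribosyl pyrophosphate synthetase of testis, were also higher in every Ahr-/- sample, at 1.495 (adjusted p = 4.73e-05) and 0.79 (adjusted p = 0.000888). Pik3cg, the lipid kinase of chemoattractant receptors, was higher there at 0.71 (adjusted p = 0.00606, and 0.13 with the enterocyte covariate), and Acp1, a small tyrosine phosphatase, lower at -0.82 (adjusted p = 0.000953), each without overlap. The goblet cell gene Agr2 lies in the same window (-1.34, adjusted p = 0.0349, and 0.722 with the enterocyte covariate) and was not called without the 3 enterocyte-high libraries (adjusted p = 0.43), nor in 7 of the 12 fits that left out a sample (Ahr-/- F2, M1, M2 or M3, or Ahrr-/- F3, M1 or M3). Next to Ahrr stood Exoc3, a subunit of the exocyst complex that tethers secretory vesicles, 1086 bases from it, which ranged from 8.97 to 9.23 (median 9.06) in Ahr-/- and from 10.07 to 10.81 (median 10.44) in Ahrr-/- samples. It was lower in every Ahr-/- sample (-1.39, SE 0.14, adjusted p = 1.75e-05), and WT samples, from 10.10 to 10.71 (median 10.54), lay with Ahrr-/-. For these neighbours the line and the genotype cannot be separated.

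**Figure D5:**
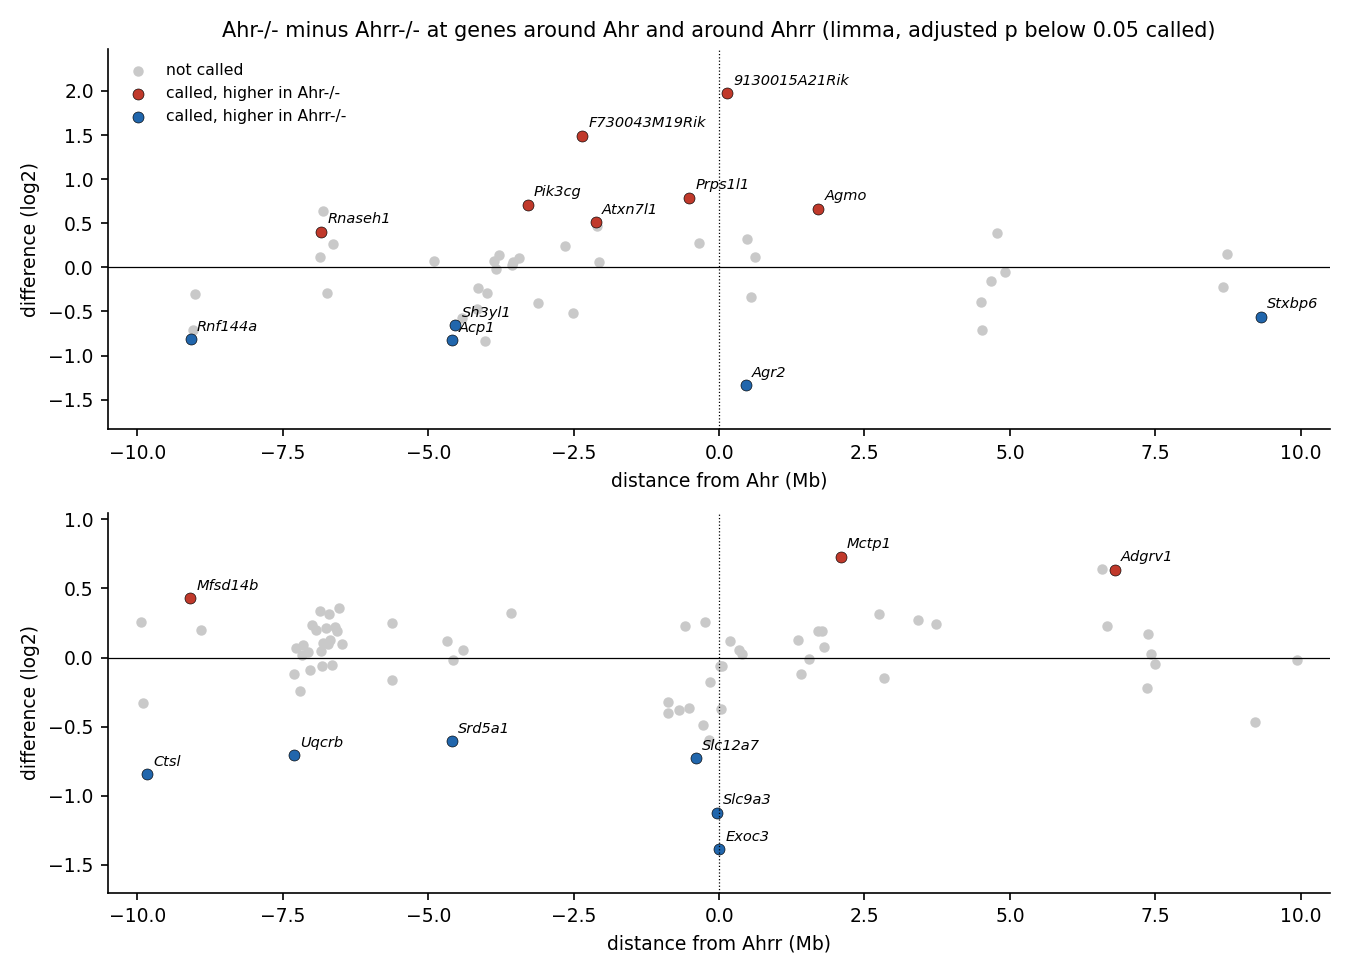
Difference, Ahr-/- minus Ahrr-/- (log2), of each tested gene within 10 Mb of Ahr (top) and of Ahrr (bottom) by its distance in Mb, called genes in colour with names. 9130015A21Rik at 1.98 stands out next to Ahr and Exoc3 at -1.39 next to Ahrr.

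Epithelial genes were higher in Ahrr-/- and moved with the libraries described at the start. Of 20 tested enterocyte markers 8 were called, of 7 goblet markers 6 and of 11 Paneth markers 10, all higher in Ahrr-/-, with medians of -0.999, -1.49 and -1.74. Without the 3 enterocyte-high libraries the counts were 0, 2 and 1 (medians -0.23, -0.80 and -0.81), and limma called none with the enterocyte covariate (medians 0.09, -0.62 and -1.14). For the enterocyte list these losses were fixed in advance, because its own sum chose the libraries and served as the covariate. Without the covariate, the goblet count was 3 when only Ahr-/- M2 was left out and the Paneth count 5 when only Ahr-/- M1 was. Leaving out a sample moved the enterocyte count between 0 (without Ahr-/- M3) and 14 (without Ahrr-/- F1). Reg3b, an antimicrobial lectin of the epithelium, ranged from 7.67 to 9.83 (median 8.60) in Ahr-/- and from 9.32 to 14.25 (median 12.76) in Ahrr-/- samples, and its close relative Reg3g from 8.16 to 10.19 (median 9.07) in Ahr-/- and from 8.70 to 13.62 (median 12.40) in Ahrr-/- samples. The spread in Ahrr-/- was wide: Ahrr-/- F1 and F2 had Reg3b at 10.81 and 9.32, while F3, M1 and M3 had 14.25, 13.09 and 14.07. The differences were -3.62 (SE 0.59, adjusted p = 0.00126) and -2.70 (SE 0.53, adjusted p = 0.00541, and 0.146 with the enterocyte covariate), and -2.42 (adjusted p = 0.00016) and -1.65 (adjusted p = 0.00586) without these libraries. The copies may share reads. Jchain ranged from 5.96 to 9.56 (median 8.19) in Ahr-/- and from 8.50 to 12.53 (median 11.92) in Ahrr-/- samples, a difference of -3.20 (SE 0.66, adjusted p = 0.00708, and 0.131 with the enterocyte covariate) that was not called without these libraries (adjusted p = 0.083). The part of epithelial and plasma cell transcripts in these results was not tested.

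Counts in large housekeeping sets moved with the samples in the fit, and the part of the 3 enterocyte-high libraries in this was not tested. Of 89 tested genes of oxidative phosphorylation, 14 were called higher in Ahrr-/- and 1 higher in Ahr-/- (16.9% called, against 14.9% over all genes; median -0.45), and without the 3 enterocyte-high libraries there were 0 calls and a median of -0.10, as against 0 and -0.09 with the enterocyte covariate. Leaving out a single sample, with no covariate, moved the number called between 2 (without Ahr-/- F1) and 55 (without Ahrr-/- F1). Of 82 tested cytosolic ribosomal protein genes, whose copies may share reads, 2 were called, both higher in Ahrr-/-, while the median was 0.15. Without these 3 libraries 28 were called, all higher in Ahr-/-, and the median was 0.52. With the enterocyte covariate 0 were called by limma (median 0.44). Without it, leaving out a single sample moved the number between 0 (without Ahr-/- F1) and 8 (without Ahrr-/- M1). Among the most abundant called genes were Il1b and Retnlg toward Ahr-/- and Fth1, the heavy chain of the iron store ferritin, toward Ahrr-/-. Fth1 ranged from 12.59 to 13.56 (median 13.23) in Ahr-/- and from 13.35 to 14.97 (median 14.03) in Ahrr-/- samples, with overlap (-0.88, adjusted p = 0.0149), and kept its difference without these libraries (-0.88, adjusted p = 0.0207).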

How the data were processed

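Bulk RNA sequencing of sorted small intestinal eosinophils gave 18 libraries, 6 per genotype with 3 females and 3 males each. According to the study's methods and the submitters' processing notes, the authors aligned single-ended reads to GRCm38 and obtained gene counts through nf-core/rnaseq; the notes name STAR 2.5.2, RSEM 1.3.0, DESeq2 and R 4.0.3. The deposited values are counts that the authors variance-stabilized with DESeq2, in log2 units. Inverting the transformation returned whole numbers in 100% of cases at a tolerance of 0.0001, from which depth was taken. Of 22708 genes, 22685 were matched to a RefSeq gene.

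Ahr-/- and Ahrr-/- samples were compared with limma 3.58.1 (lmFit, eBayes with a mean-variance trend) in R 4.3.3, adjusting for sex. Genes whose mean over the 12 samples exceeded the lowest value by 1 or more were tested. Genes with a Benjamini-Hochberg adjusted p below 0.05 were called, and 2-fold stands for a log2 difference of 1. The interaction of genotype with sex was fitted in the same way, and principal component scores were compared by an exact permutation test. With the mean of each sex removed, that test is not exact. Tables and figures were made with Python 3.11.15, numpy 2.4.6, pandas 2.3.3 and matplotlib 3.10.9. The fits were tested on simulated data.

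Models, thresholds, the naming rule and all alternatives except the enterocyte ones were set before the fits reported here. Gene lists and their members were fixed at the same time. Earlier results of these data were known by then, so neither these choices nor the list counts are blind. Genes named are Ahr, Ahrr and the AHR targets, the 12 largest differences in each direction among the called genes that did not overlap, up to 4 called members per list and any that went against its majority, called genes within 10 Mb of either locus, the most abundant and the called genes of each marker list, and the 5 most abundant called genes in each direction. From these a selection is printed. Xist, Ccr3, Epx and Ly6g serve as checks, and Cd47, Clec5a, Pirb and Runx1 were chosen after their values were seen.

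Alternatives changed the minimum mean, the normalization, the variance model, the scale, the sex covariate and the samples in the fit; those on enterocyte transcripts were added after the data were seen. WT samples took no part in the tests except in the alternatives that used all 18 samples. Cells of other tissues and other measurements of the study were not analysed here. Depth limits low genes: near 5.02 a difference rests on few counts and is compressed. Genes with near-identical copies may share reads, and 6 samples per genotype from lines of unknown relation do not separate genotype from line, litter or housing.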

Additional observations from a re-analysis of the deposited data

Results flagged for a closer look

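Within each genotype, the highest and the lowest of the 6 samples were checked for a gap to the next sample beyond Dixon's 95% limit, for the genes named above, marker sums, depth, genes detected and component scores. Of 355 groups tested, 21 held such a sample, and chance flags about 1 in 20 groups. Ahr-/- F3 accounted for 9 of them. Ahr-/- F3 stood above the rest of its group for Aldh3a1 (5.37), Ido2 (5.45), Ly6g (5.67), S100a8 (9.61) and S100a9 (10.15), below it for Fcgr4 (7.03), Maml2 (8.17) and Pik3cg (11.24) and had a count above 0 for 19694 genes.
Ahr-/- F2 stood above the rest of its group for Pirb (12.38) and below it for Cd22 (8.99) and Id2 (8.60). Ahr-/- M2 stood above the rest of its group for Nqo1 (6.92). Ahrr-/- F1 stood above the rest of its group for Fgf21 (5.26). Ahrr-/- F2 stood above the rest of its group for Gadd45g (7.07) and Ly6g (5.80). Among WT samples, Clec4a4 in F1 was lowest at 9.07, Fgf21 in M1 was highest at 5.27, Ly6g in F3 was highest at 5.74, Mmp27 in F1 was lowest at 6.75 and the number of genes with a count in F3 was highest at 20244. None of these values was left out of the tests, and no cause was tested.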

How the results depend on the processing

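The direction of the 88 called genes named in the text held under all alternatives that tested them; 82 of them stayed called in each fit that left out a sample, 81 without the 3 enterocyte-high libraries and 70 with the enterocyte level as covariate. The number called stayed within 1.5 times of 1708 with centring, quantile normalization, no trend, a robust fit, sample weights (2196), both log2 count scales, voom (1728) and all 18 samples.

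It moved to 713 (432 higher in Ahr-/- and 281 in Ahrr-/-) without a minimum mean, with 81 past 2-fold toward Ahrr-/-, and to 828 (500 higher in Ahr-/- and 328 in Ahrr-/-) with a minimum mean of 3, with 107 past 2-fold toward Ahrr-/-; fewer or more genes were tested there. Without the sex covariate it was 994, of which 445 were higher in Ahrr-/-. Past 2-fold, the numbers toward Ahr-/- and Ahrr-/- were 232 and 623 on log2(count + 1), 188 and 572 on log2(count + 8) and 243 and 680 with voom. These scales compress differences at low counts less than the authors' values do. Females alone, with 3 samples per genotype as in males, gave 110 (47 higher in Ahr-/- and 63 in Ahrr-/-), and 38 and 61 past 2-fold. Males alone gave 1209 (435 higher in Ahr-/- and 774 in Ahrr-/-), and 165 and 461 past 2-fold. Without the 3 enterocyte-high libraries there were 608 (307 higher in Ahr-/- and 301 in Ahrr-/-), and 56 and 102 past 2-fold; with the enterocyte level as covariate there were 345 (141 higher in Ahr-/- and 204 in Ahrr-/-), and 49 and 98 past 2-fold. Both were chosen after the data were seen.

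Leaving out a sample moved the total from 818 to 2574, those higher in Ahr-/- from 435 to 1120 and in Ahrr-/- from 379 to 1454, and those past 2-fold from 76 to 119 and from 113 to 354. The permutation p of the first component lay between 0.00216 and 0.0238 when a sample was left out, and was 0.0357 without the 3 enterocyte-high libraries. The interaction with sex stayed at 0 calls, but 3 without a minimum mean, Mir6915, A330070K13Rik and Gm12718.

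With the enterocyte level as covariate the differences of Ccr3 (-0.121), Cdkn1b (-0.000575), Gsta1 (0.0602), Lpcat2 (-0.0492), Scin (0.0214) and Ugt1a6a (0.0366) changed sign; none of these genes was called. With the replicate label as a block in place of sex, 1946 genes were called, 1566 of them shared. Equal labels do not mark pairs: only F1 and F3 correlated best across genotypes with the sample of their own label, with correlations of 0.30, -0.02, 0.33, -0.10, -0.05 and -0.34 from F1 to M3. Apart from changes in genes tested, samples and scale, the cause was not tested.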
